A study of Saccharomyces cerevisiae with 6 samples.

Results

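A group of 41 yeast genes of sugar metabolism is described here, out of 5379 genes named on the array: glycolysis from hexose phosphate to pyruvate, the fermentation of pyruvate to ethanol and acetate, gluconeogenesis, the pentose phosphate pathway and glycerol synthesis. The genes were listed by name, in pathway order, with earlier results of these data known. Their shares beside those of all genes are thus description and not a test. They were measured in Saccharomyces cerevisiae strain S288C, a haploid laboratory reference strain, growing exponentially (optical density of 1) at 25 °C in rich YPD medium with 2% glucose. One culture of each pair received 12.6 µM zinc pyrithione, an antifungal zinc complex delivered in dimethyl sulfoxide, for 2 h, and the other was grown on for the same time with no addition. Polyadenylated RNA of the treated culture (Cy5) and of the untreated culture (Cy3) was hybridised together to 1 cDNA array, which was done for 3 independent biological samples, each read at high and at low laser power.

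In what follows a ratio is the log2 of treated over untreated, averaged over both scans of an array, and each value is the mean ± SD of 3 arrays (n = 3) unless stated otherwise. The deposited values do not name the numerator of the ratio, so that Cy5 over Cy3 is the likely and not the stated direction. With the opposite numerator, "higher" and "lower" would change places. Dyes were never exchanged, and the control is labelled as without treatment, so that dye and solvent cannot be told apart from the compound. A 2-colour ratio is relative to the average transcript of the same cells, and a change shared by most transcripts, or in RNA per cell, is not visible in it. "Past the threshold" stands for an adjusted p under 0.05 from limma, a linear model that borrows part of each gene's variance from the other genes, with Benjamini-Hochberg adjustment over all 4312 genes measured on all 3 arrays.

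Upper glycolysis splits a hexose into a pair of trioses at the cost of ATP, and lower glycolysis oxidises them to pyruvate, which returns ATP. Baker's yeast in high glucose sends most pyruvate through pyruvate decarboxylase and alcohol dehydrogenase to ethanol even in the presence of oxygen, which regenerates the NAD+ that glycolysis uses. The oxidative pentose phosphate pathway diverts glucose 6-phosphate to make NADPH, the reductant of biosynthesis and of the glutathione and thioredoxin systems, and its non-oxidative arm returns pentoses to glycolysis. Many steps are encoded by pairs or triplets of isozyme genes, of which 1 dominates in glucose and the others are used on other carbon sources or under stress.

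All 41 genes had a named spot, 1 spot each, and 39 were measured on all 3 arrays and tested. Of these 39, 7 were past the threshold and higher in treated cells (17.9%; 8.12% of all 4312 genes were), and 1 was lower (2.56%; 9.6% of all genes were). Those higher were GND2, PDC6, ADH5, GPM2, GND1, GPM1 and PDC5, and the one lower was RPE1. The median ratio of the 39 genes was 0.32, beside 0.03 for all genes tested, and 21 of them were positive on all 3 arrays (28.9% of all genes were). The changes were mostly small: 3 of the 8 called genes (GND2, RPE1 and PDC6) differed by 2-fold or more, and ADH5 lay just under that. The median SD between arrays was 0.254 for these genes and 0.273 for all genes, and the smallest ratio that passed the threshold anywhere on the array had a size of 0.541, which most members did not reach. By the SD of 3 arrays alone, 95% intervals spanned 0 for GPM2 (-0.57 to 2.56), PDC6 (-0.24 to 2.67) and PDC5 (-0.13 to 1.42). Their calls thus relied on variance borrowed from other genes. Without replicate 1 the 7 higher genes came down to 1 (GND2), and without replicate 2 to 3, whereas RPE1 was past the threshold each time. Fits to 2 arrays called fewer genes in general: those higher over the whole array came down from 350 to 132 and 137.

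**Figure D1:**
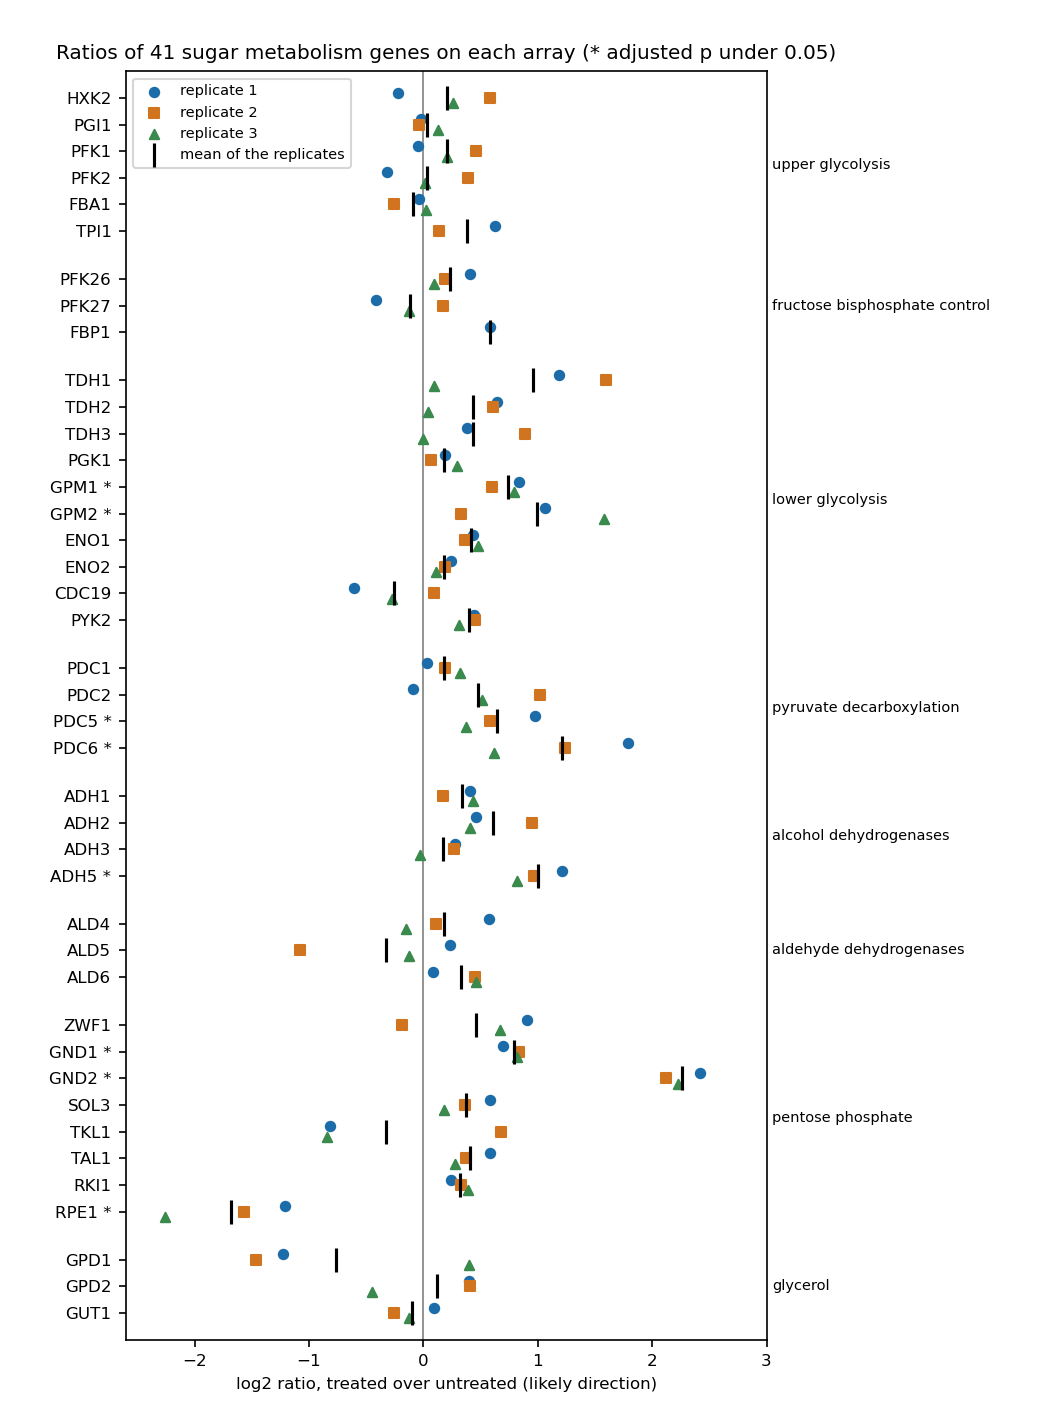
Log2 ratio of each of the 41 genes on each array (points; x axis), in pathway order (y axis), with the mean of the arrays as a vertical bar; an asterisk marks an adjusted p under 0.05. GND2 stands at the right, between 2.12 and 2.42, and RPE1 at the left, between -2.26 and -1.21, while most other genes lie within 1 of 0.

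Upper glycolysis held no gene past the threshold among the 5 tested of 6 (8.12% of all genes were higher and 9.6% lower). None of the 5 had the same sign on all arrays (54.9% of all genes did), and 5 genes are few for a comparison. HXK2 (YGL253W), the main hexokinase in glucose, read -0.22, 0.58 and 0.26 in replicates 1, 2 and 3, a mean of 0.21 ± 0.40 (limma adjusted p = 0.48). PGI1 (YBR196C), phosphoglucose isomerase, read -0.02, -0.04 and 0.13, the tightest of the branch at 0.03 ± 0.09. The subunit genes of phosphofructokinase, PFK1 (YGR240C) and PFK2 (YMR205C), read -0.05, 0.46 and 0.21 and -0.32, 0.39 and 0.01. Both subunit genes thus had their lowest value in replicate 1 and their highest in replicate 2, as HXK2 did. FBA1 (YKL060C), the aldolase, stood at -0.09 ± 0.15 with a range of -0.26 to 0.02. TPI1 (YDR050C), triose phosphate isomerase, had values on 2 arrays, 0.63 and 0.14, and was not tested.

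The genes that set fructose 2,6-bisphosphate, the activator of phosphofructokinase, did not pass the threshold. PFK26 (YIL107C), a 6-phosphofructo-2-kinase, was positive on every array at 0.41, 0.19 and 0.09 (0.23 ± 0.16; limma adjusted p = 0.34). PFK27 (YOL136C), the other such kinase, read -0.41, 0.17 and -0.13 (-0.12 ± 0.29; limma adjusted p = 0.65). FBP1 (YLR377C), the fructose bisphosphatase of gluconeogenesis, which glucose represses, had 1 value, 0.58 in the high-power scan of replicate 1, and could not be compared.

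In lower glycolysis 8 of the 10 genes were positive on all 3 arrays (28.9% of all genes were) and 2 rose (8.12% of all genes did). GPM1 (YKL152C), the main phosphoglycerate mutase, read 0.84, 0.60 and 0.79, so that the lowest array was well above 0 (0.74 ± 0.13, a 1.67-fold difference; limma adjusted p = 0.018). GPM2 (YDL021W), a homolog of GPM1 with little mutase activity, read 1.06, 0.33 and 1.58, a 1.99-fold difference with a far wider spread (0.99 ± 0.63; limma adjusted p = 0.031). Its value came from the high-power scans alone on every array. The call of GPM1 ended with low-power values alone and whichever replicate was left out, though its mean stayed at 0.69, 0.82 and 0.72. That of GPM2 ended without replicate 1 or 3. With 2 arrays fewer genes were called over the whole array too: 311, 320 and 597 without replicates 1, 2 and 3, in place of 764.

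The 3 glyceraldehyde 3-phosphate dehydrogenase genes shared a pattern in which replicate 3 was lowest. TDH1 (YJL052W), the isozyme linked to stationary phase and stress, read 1.19, 1.60 and 0.09, a mean of 0.96 ± 0.78 that missed the threshold (limma adjusted p = 0.053). Without replicate 3 its mean was 1.40 and it passed (limma adjusted p = 0.012). In replicate 3 the scans of TDH1 disagreed, at 0.69 at high power and -0.50 at low power, and with high-power values alone the gene passed at 1.10 (limma adjusted p = 0.0037). TDH2 (YJR009C) read 0.64, 0.61 and 0.04 and TDH3 (YGR192C), the most expressed of the family, 0.38, 0.89 and 0.00, both with means of 0.43 (limma adjusted p = 0.14 and 0.18). The TDH transcripts are alike enough in sequence that a cDNA spot can bind those of the other family members, which was not tested. The same holds for ENO1 and ENO2, for PDC1, PDC5 and PDC6, for ADH1 and ADH2, and for GND1 and GND2. Such binding between ADH1 and the isozyme genes ADH3 and ADH5 was not tested either.

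PGK1 (YCR012W), phosphoglycerate kinase, stood at 0.18 ± 0.11, positive on all arrays (limma adjusted p = 0.44). The enolase genes were among the members that varied least between arrays. ENO1 (YGR254W) read 0.43, 0.36 and 0.48 (0.42 ± 0.06; limma adjusted p = 0.092), and ENO2 (YHR174W), the glucose-induced enolase, 0.24, 0.19 and 0.11 (0.18 ± 0.07; limma adjusted p = 0.44). At the last step the pyruvate kinases stood on opposite sides of 0: CDC19 (YAL038W), the main enzyme, read -0.61, 0.09 and -0.27 (-0.26 ± 0.35), and PYK2 (YOR347C), which is repressed by glucose, 0.44, 0.45 and 0.31 (0.40 ± 0.08). Neither passed the threshold (limma adjusted p = 0.35 and 0.11).

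Of 8 fermentation genes tested, 3 rose and none fell, and 6 were positive on all 3 arrays. Over all genes these shares were 8.12%, 9.6% and 28.9%, and 8 genes are few for a comparison. PDC6 (YGR087C), a minor pyruvate decarboxylase gene that yeast induces when sulfur is short, was 2.32-fold higher, with 1.79, 1.24 and 0.62 on the arrays (1.21 ± 0.59; limma adjusted p = 0.013). Replicate 1 was about as far above the mean as replicate 3 was below it, and leaving out replicate 1 or 2 ended the call (limma adjusted p = 0.072 and 0.064). PDC5 (YLR134W), the isozyme that is raised when PDC1 is lost or thiamine is short, read 0.98, 0.58 and 0.37 (0.64 ± 0.31; limma adjusted p = 0.046). This call was marginal: it ended when each scan was centred on its median (limma adjusted p = 0.058), after quantile normalization (0.053), with genes on at least 2 arrays included (0.055), with low-power values alone (0.15) and whichever replicate was left out. PDC1 (YLR044C), the main pyruvate decarboxylase, stood at 0.18 ± 0.14, and PDC2 (YDR081C), a transcription factor for PDC1, PDC5 and thiamine genes, at 0.48 ± 0.55 with a first array at -0.09.

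ADH5 (YBR145W), an alcohol dehydrogenase isozyme, was close to 2-fold higher and the most even of the fermentation genes that rose, at 1.21, 0.97 and 0.82 (1.00 ± 0.20; limma adjusted p = 0.0069). All 6 of its scans were positive, between 0.77 and 1.25, and its call ended without replicate 1 (limma adjusted p = 0.059). ADH2 (YMR303C), the glucose-repressed enzyme that oxidises ethanol, read 0.46, 0.95 and 0.41 and fell just short of the threshold (0.61 ± 0.30; limma adjusted p = 0.052), which it passed in the high-power scans alone at a mean of 0.51 (limma adjusted p = 0.047). ADH1 (YOL086C), the main ethanol-forming enzyme, was positive on all arrays at 0.41, 0.17 and 0.43 (0.34 ± 0.14; limma adjusted p = 0.17). ADH3 (YMR083W), the mitochondrial isozyme, stood at 0.17 ± 0.18.

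No aldehyde dehydrogenase gene of the 3 tested passed the threshold (8.12% of all genes were higher and 9.6% lower). ALD6 (YPL061W), the cytosolic enzyme that makes acetate and NADPH, was positive on all arrays at 0.08, 0.45 and 0.46 (0.33 ± 0.21; limma adjusted p = 0.19). The mitochondrial ALD4 (YOR374W) read 0.57, 0.11 and -0.15, and ALD5 (YER073W) 0.23, -1.08 and -0.13, so that both crossed 0 between arrays. Leaving out replicate 1 moved the mean of ALD4 from 0.18 to -0.02, and leaving out replicate 2 moved that of ALD5 from -0.33 to 0.05.

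The pentose phosphate pathway held both extremes of the 41 genes. GND2 (YGR256W), the second 6-phosphogluconate dehydrogenase gene, read 2.42, 2.12 and 2.23, a 4.78-fold difference (2.26 ± 0.15; limma adjusted p = 2.0e-04), and ranked 19 from the top of the 4312 genes. RPE1 (YJL121C), the ribulose 5-phosphate epimerase that opens the non-oxidative arm, read -1.21, -1.57 and -2.26, a 3.2-fold difference downward (-1.68 ± 0.53; limma adjusted p = 0.003), and ranked 56 from the bottom. Both were read in the high-power scans alone on all arrays. The calls of both held under every alternative in which they could be tested, including without replicate 1, 2 or 3.

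Among the oxidative steps, which make the NADPH, GND1 (YHR183W), the main 6-phosphogluconate dehydrogenase, rose with little spread at 0.70, 0.84 and 0.82 (0.79 ± 0.07, 1.72-fold; limma adjusted p = 0.013), though its call ended without replicate 1 or 2 (limma adjusted p = 0.07 and 0.074). ZWF1 (YNL241C), glucose 6-phosphate dehydrogenase at the entry of the pathway, read 0.91, -0.19 and 0.67 (0.46 ± 0.58; limma adjusted p = 0.20). Its value in replicate 2 averaged scans of opposite sign, 0.42 at high and -0.81 at low power. In the high-power scans alone ZWF1 stood at 0.62 and passed the threshold (limma adjusted p = 0.021). SOL3 (YHR163W), 6-phosphogluconolactonase, was positive on all arrays at 0.58, 0.36 and 0.18 (0.37 ± 0.20; limma adjusted p = 0.15).

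Of the members in the non-oxidative arm, RPE1 alone passed the threshold. TAL1 (YLR354C), transaldolase, read 0.58, 0.37 and 0.28 (0.41 ± 0.15; limma adjusted p = 0.11, and 0.05 with high-power values alone) and RKI1 (YOR095C), the ribose 5-phosphate ketol-isomerase that acts on the same substrate as RPE1, 0.24, 0.33 and 0.39 (0.32 ± 0.08; limma adjusted p = 0.18). TKL1 (YPR074C), the main transketolase, read -0.82, 0.68 and -0.84 (-0.33 ± 0.87; limma adjusted p = 0.48). Without replicate 2 its mean was -0.83, which fell short of the threshold (limma adjusted p = 0.058). Both scans of TKL1 had the same sign on each array, but their size differed in replicates 1 and 3. They read -0.06 and -0.31 at high power against -1.58 and -1.37 at low power. In replicate 2 they read 0.63 and 0.74. The sign of the mean of TKL1 depended on the scan, at 0.09 with high-power and -0.74 with low-power values alone.

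None of the 3 glycerol genes passed the threshold (8.12% of all genes were higher and 9.6% lower). None kept its sign across arrays (54.9% of all genes did), and 3 genes are few for a comparison. GPD1 (YDL022W), the glycerol 3-phosphate dehydrogenase induced by osmotic stress, read -1.23, -1.46 and 0.40 (-0.76 ± 1.01; limma adjusted p = 0.16), the largest SD of the members. Both scans of replicate 3 were positive, at 0.24 and 0.56, and without replicate 3 the mean was -1.35 and the gene passed (limma adjusted p = 0.011). GPD2 (YOL059W), the isozyme used without oxygen, went against GPD1 on every array with 0.40, 0.41 and -0.45 (0.12 ± 0.50). GUT1 (YHL032C), the glycerol kinase of glycerol use, stayed between -0.26 and 0.09 (-0.10 ± 0.18; limma adjusted p = 0.69).

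The branches were set side by side by their medians. The median of gene means was 0.03 in upper and 0.42 in lower glycolysis, 0.54 in fermentation, 0.18 over the aldehyde dehydrogenases, 0.39 in the pentose phosphate pathway and -0.10 over the glycerol genes, with no test because the genes are a chosen list. Lower minus upper glycolysis, taken between medians of the same array, was 0.49, 0.01 and 0.06 (0.19 ± 0.26), so that the difference lay in replicate 1. Fermentation minus upper glycolysis was positive each time, at 0.49, 0.38 and 0.28 (0.38 ± 0.10). Fermentation minus lower glycolysis was 0, 0.36 and 0.22 (0.19 ± 0.18). Against upper glycolysis, the pentose phosphate pathway (0.63, -0.03 and 0.20) and the glycerol genes (0.15, -0.65 and -0.26) changed sign between arrays. The pentose phosphate pathway differed from lower glycolysis by 0.14, -0.04 and 0.14, within the spread between arrays.

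**Figure D2:**
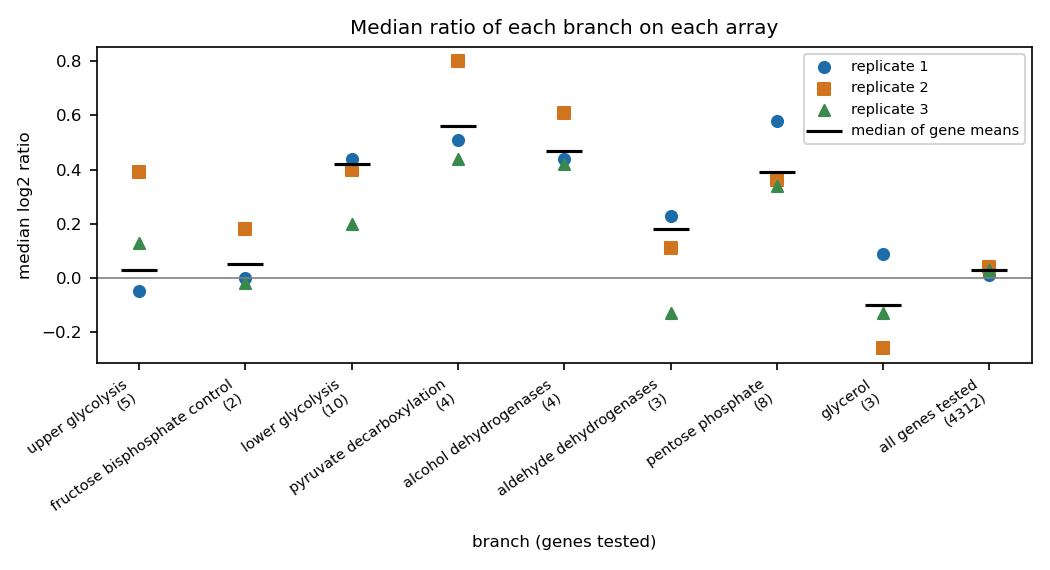
Median log2 ratio of the tested genes of each branch on each array (points) and median of the gene means (bars), with the number of genes tested in parentheses and all genes at the right. Fermentation (pyruvate decarboxylation and alcohol dehydrogenases), lower glycolysis and the pentose phosphate pathway lie between 0.20 and 0.80 on every array, while upper glycolysis runs from -0.05 to 0.39.

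Isozyme genes, and opposed enzymes, were compared within each array as the ratio of the first gene minus that of the second, for 17 of 18 listed pairs (FBP1 lacked values). For each second gene the same difference was fitted over all other genes, and the p-value adjusted over these 4311. A total of 4 pairs passed the threshold, and 5 had an unadjusted p under 0.05. GND2 exceeded GND1 by 1.71, 1.28 and 1.41 (1.47 ± 0.22; limma adjusted p = 6.8e-04), although 79% of all genes differed from GND1. PDC6 exceeded PDC1 by 1.76, 1.05 and 0.30 (1.03 ± 0.73; limma adjusted p = 0.017), where 21.2% of all genes differed from PDC1, and the call ended without replicate 1 (limma adjusted p = 0.12). ADH5 exceeded ADH1 by 0.80, 0.80 and 0.39 (0.66 ± 0.23; limma adjusted p = 0.024; 31% of all genes differed from ADH1), a call that ended without replicate 1 or 2 and with low-power values alone. ALD5 lay below ALD6 by a mean difference of -0.66 ± 0.84 (limma adjusted p = 0.032; 29.6% of all genes differed from ALD6), but its arrays read 0.14, -1.54 and -0.59. This pair owed its call to replicate 2, without which the difference was -0.22 (limma adjusted p = 0.73), and it also ended without replicate 3 (limma adjusted p = 0.14). By the SD of 3 arrays alone, 95% intervals spanned 0 for PDC6 minus PDC1 (-0.77 to 2.84) and ALD5 minus ALD6 (-2.76 to 1.43). The calls of these pairs thus relied on variance borrowed from other genes.

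In the remaining glycolytic and fermentative pairs the difference did not pass the threshold. PYK2 minus CDC19 was positive on all arrays at 1.05, 0.36 and 0.58 (0.66 ± 0.36; limma adjusted p = 0.11; 14.5% of all genes differed from CDC19), with a 95% interval from the SD of these arrays of -0.22 to 1.55. Without replicate 2 it was 0.82 and passed (limma adjusted p = 0.038). PDC5 minus PDC1 was positive on all arrays too, at 0.46 ± 0.46 (limma adjusted p = 0.16). So was TDH1 minus TDH3 at 0.54 ± 0.39 (limma adjusted p = 0.28), whereas TDH2 minus TDH3 was 0.00 ± 0.27 with an interval of -0.68 to 0.68 (18.3% of all genes differed from TDH3). ENO1 minus ENO2 was 0.19, 0.17 and 0.37 (0.24 ± 0.11; limma adjusted p = 0.32; 22.2% of all genes differed from ENO2). GPM2 minus GPM1 changed sign between arrays (0.25 ± 0.53; limma adjusted p = 0.32), and 74.1% of all genes differed from GPM1.

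The subunit genes of phosphofructokinase differed by 0.18 ± 0.10 (limma adjusted p = 0.82; 11% of all genes differed from PFK2), with an interval of -0.08 to 0.44. The kinase genes PFK26 and PFK27 differed by 0.35 ± 0.41 (limma adjusted p = 0.42; 14% of all genes differed from PFK27). GPD2 minus GPD1 read 1.63, 1.87 and -0.85 (0.88 ± 1.51; limma adjusted p = 0.37), where 1.86% of all genes differed from GPD1. Without replicate 3 that difference was 1.75 (limma adjusted p = 2.7e-05), and GUT1 minus GPD1 behaved alike, with 0.67 from all arrays and 1.26 without replicate 3. Both differences share the values of GPD1. The share of all genes that differed from GPD1 without replicate 3 was not counted, and 1.86% belongs to the fit to all arrays. The intervals of ADH2 minus ADH1 (-0.83 to 1.36), ADH3 minus ADH1 (-0.86 to 0.53) and ALD4 minus ALD6 (-1.57 to 1.26) were too wide to show whether these genes moved alike.

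**Figure D3:**
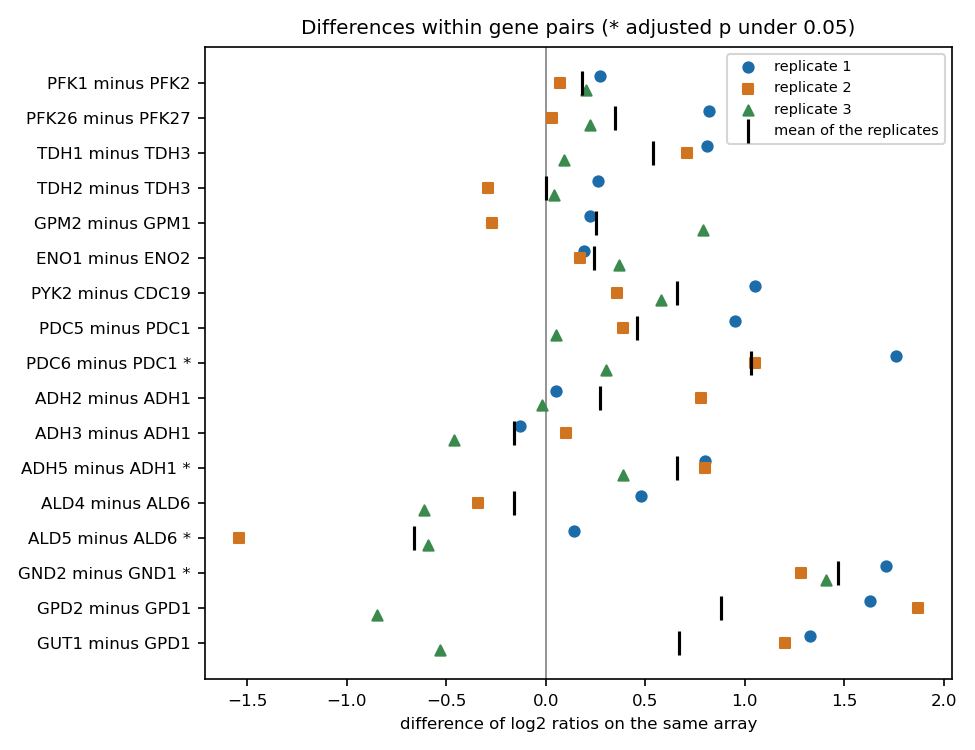
Difference of the log2 ratios of the genes of a pair on the same array (points; x axis) for 17 pairs (y axis), with the mean as a vertical bar; an asterisk marks an adjusted p under 0.05. GND2 minus GND1 lies between 1.28 and 1.71, and GPD2 minus GPD1 falls to -0.85 in replicate 3 against 1.63 and 1.87 in the others.

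Some genes of the pathway had values in other scans than most of the array did. Without spot intensities, the brightness of their spots is not known. Each array was scanned again at low power to recover spots that exceeded the scanner's range. In replicate 1, 10 of the 33 members with a low-power value (30.3%) had no value at high power, against 2.3% of all genes. In replicate 3 this held for 4 of 34 (11.8%, against 1.14%), and in replicate 2 for 1 of 30 (3.33%, against 0.0591%), where TDH2 was the sole gene of the array. All 10 genes so affected on any array belong to glycolysis proper: PGI1, PFK2, TPI1, TDH2, TDH3, PGK1, GPM1, ENO1, ENO2 and CDC19. TDH2 had no high-power value on any array, so that its ratio rests on 3 low-power scans.

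By contrast, GPM2, PDC6, GND2 and RPE1 were read at high power alone on all arrays, and all 4 were past the threshold. Of the 934 genes read in that way, 17.1% were. Of the 9 tested members that lacked a high-power value on some array, 1 was past the threshold (GPM1; 11.1%, against 43.3% of the 60 genes of the array read in that way), and their mean ratios ran from -0.26 to 0.74. Main and minor isozymes of GPM, PDC and GND were thus read in part in different scans, and what that contributed to the differences within pairs was not tested. For the 20 members with both scans on all arrays, high minus low power gave 0 calls in limma (0% of 1372 genes were called), and 1 gene, TKL1, had an unadjusted p under 0.05. Both scans of a member on an array differed by a median of 0.167 over 82 comparisons (0.207 over all genes) and had opposite signs in 17.1% (19.5% over all genes). A gap over 1 occurred 4 times (4.88% of the comparisons, and 2.43% over all genes), in TDH1 (replicate 3), ZWF1 (replicate 2) and TKL1 (replicates 1 and 3).

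**Figure D4:**
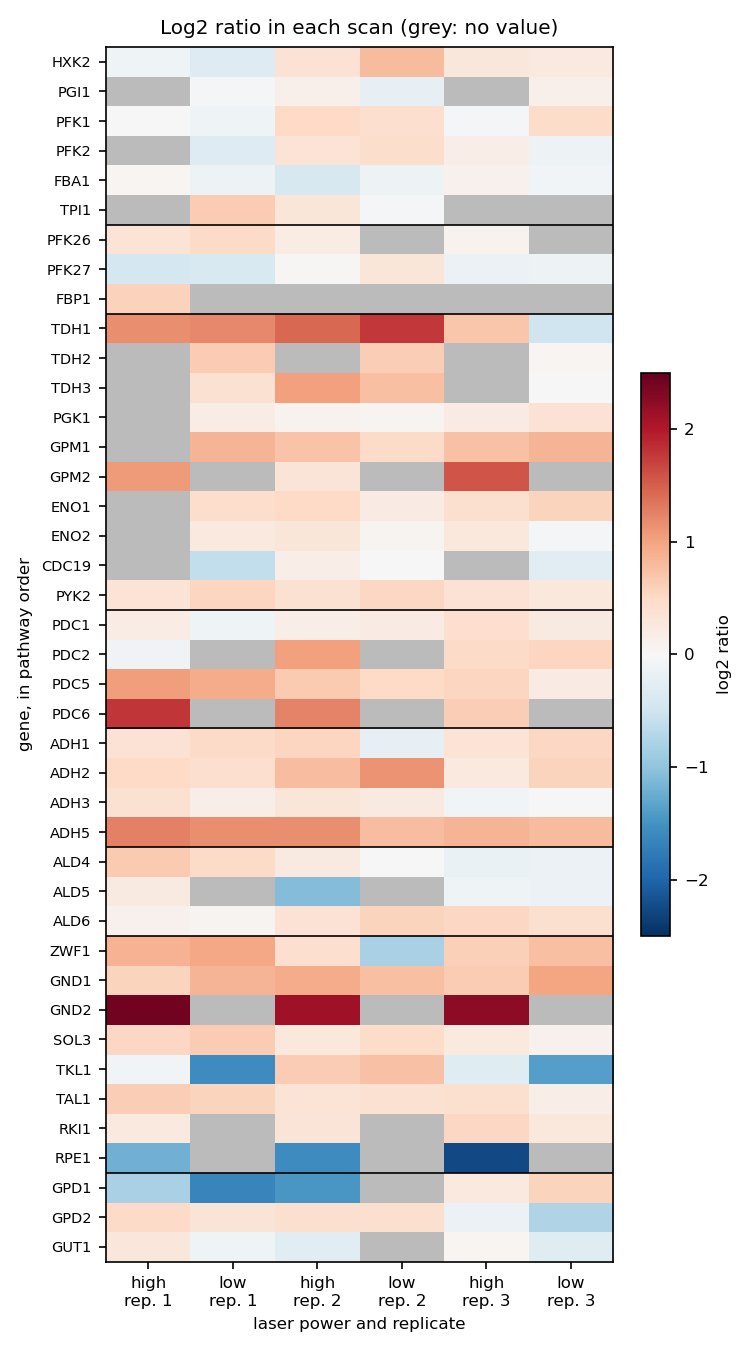
Log2 ratio of the 41 genes (rows, in pathway order) in each of the 6 scans (columns), on a colour scale from blue (lower in treated) to red (higher); grey cells have no value. Grey cells in the high-power scan of replicate 1 cluster in glycolysis, while GPM2, PDC6, GND2 and RPE1 are grey in all low-power scans.

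Genes around the pathway that are not among the 41 were taken from lists, also chosen with earlier results of these data known. Of 61 such genes tested, 7 rose (11.5%) and 6 fell (9.84%), with a median of 0.08. Both shares lie near those of the whole array (8.12% and 9.6%), so that the counts do not set these genes apart. Next to the pentose phosphate pathway, 2 of 14 rose and 2 fell: NQM1, a transaldolase paralog, stood at 0.91 ± 0.35 and GRE3, an NADPH-dependent aldose reductase, at 0.63 ± 0.31 (limma adjusted p = 0.016 and 0.048), while PRS2 (-0.80 ± 0.27) and PRS5 (-0.57 ± 0.11), which make phosphoribosyl pyrophosphate from ribose 5-phosphate, fell (limma adjusted p = 0.02 and 0.043). STB5, an activator of NADPH-producing genes, was at 0.50 ± 0.23 (limma adjusted p = 0.072).

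Around glycerol, 3 of 7 genes rose and none fell (8.12% and 9.6% of all genes did). GCY1, a glycerol dehydrogenase of the alternative route of glycerol breakdown, stood at 0.92, 0.72 and 1.12 (0.92 ± 0.20; limma adjusted p = 0.0094). DAK1, the dihydroxyacetone kinase that follows it, read 0.70, 0.66 and 0.69 (0.68 ± 0.02; limma adjusted p = 0.021). GUT2, the mitochondrial glycerol 3-phosphate dehydrogenase, stood at 0.71 ± 0.26 (limma adjusted p = 0.028). These 3 were named because they passed the threshold, so that their positive sign on all arrays does not set them against GPD1, GPD2 and GUT1.

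Among 9 further alcohol and aldehyde enzymes, 2 rose and 1 fell (8.12% and 9.6% of all genes did). ADH7, an NADPH-dependent alcohol dehydrogenase, was at 0.87 ± 0.28 and SFA1, the glutathione-dependent formaldehyde dehydrogenase, at 0.75 ± 0.15, and ACS2, the acetyl-CoA synthetase used in glucose, at -0.72 ± 0.27 (limma adjusted p = 0.015, 0.018 and 0.028). Of 4 genes of pyruvate use and gluconeogenesis, 2 fell: MDH2, the cytosolic malate dehydrogenase, at -0.97 ± 0.29 and PYC1, a pyruvate carboxylase, at -0.61 ± 0.11 (limma adjusted p = 0.01 and 0.033).

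None of 5 glycolytic regulators passed the threshold (median -0.01), with GCR1 at 0.33 ± 0.32 and GCR2 at 0.26 ± 0.20, the activator pair of glycolytic genes. None of 6 genes of hexose entry did either (median 0.21), where GLK1, glucokinase, read 0.45, 0.52 and 0.36 and PGM1 stood at 0.35 ± 0.54. Of 12 genes of glucose repression and signalling (median -0.18), 1 fell and none rose. Over all genes 9.6% fell and 8.12% rose, so that the count does not set this list apart. The gene that fell was ADR1, an activator of glucose-repressed genes such as ADH2, at -0.72, -1.59 and -1.34 (-1.22 ± 0.44; limma adjusted p = 0.0076). None of the 9 glucose-repressed genes tested, ADH2 among them, passed the threshold (median -0.01), and JEN1, the lactate permease, stood at -0.49 ± 0.32.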

How the data were processed

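The members and gene lists were chosen with earlier results of these data known. The deposited table holds log2 ratios, 1 column per scan, and no spot intensities. Per the labels, the authors normalized unflagged spots by LOWESS; the log2 base was read from the values, whose minimum (-6.64) is that of a ratio of 0.01. The merged value of both scans named in the labels was not used here. Software and background correction are not given in the sources used here.

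Of 6912 spots, 5446 carried 1 gene name (GEO's platform annotation; all matched to RefSeq assembly R64 by gene ID, for names alone) and 1466 none; 0 sample columns were unused. Spots of a gene were averaged, then both scans of an array, taking the one present where the other was missing. The mean of 3 arrays was tested against 0 with limma 3.58.1 (lmFit, eBayes; R 4.3.3) and Benjamini-Hochberg adjustment. Scans held values for 1692 to 5219 genes, and their medians lay between 0.0186 and 0.0817. The number of arrays limits the precision. Pairs were fitted as differences within arrays. All 41 members are named, with up to 4 called genes of each surrounding list, farthest from 0, or up to 2 as values where none was called; STB5, ADH4, MIG2 and PCK1 were named besides, after their values were seen. Alternatives were each laser power alone, genes with both scans, genes on at least 2 arrays, median centring, quantile normalization, robust eBayes, an adjusted p under 0.01, and each replicate left out. Figures were drawn with matplotlib 3.10.9.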

Additional observations from a re-analysis of the deposited data

How the results depend on the processing

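With an adjusted p under 0.01 in place of 0.05, calls over all 4312 genes went from 764 to 295, members higher from 7 to 2, and pairs from 4 to 1. In the low-power scans alone, 151 of 1429 genes, 2 of 29 members higher, 0 lower and 0 of 10 pairs were called. Medians there were 0.32 for pyruvate decarboxylation (2 genes) and -0.06 for fructose bisphosphate control (1 gene). With genes read in both scans on all arrays, 357 of 1372 genes, a larger share than in all genes, 5 of 20 members higher and 1 of 5 pairs were called. In both settings the 0 members lower follows from RPE1 having no low-power value. The second setting gave medians of 0.68 in lower glycolysis (2 genes), -0.12 for fructose bisphosphate control (1 gene) and 0.12 for glycerol (1 gene). Fewer genes of these branches remained in it, so that these medians do not compare with the main ones. In the high-power scans alone, calls rose to 1085 of 4252 genes and to 10 of 30 members higher, against 7 of 39, and the median of lower glycolysis was 0.99, over 3 genes. Leaving out a replicate gave 311 to 597 called genes, 1 to 5 members higher, 1 to 2 lower, 2 to 5 pairs, and an aldehyde dehydrogenase median of -0.02 to 0.27.

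Means near 0 changed sign in places. With low-power values alone PFK2 stood at -0.01, PGI1 at -0.03 and GPD2 at -0.01; with high-power values alone GUT1 stood at 0.02 and TKL1 at 0.09; with centred scans PFK2 stood at -0.02, PGI1 at -0.03 and TDH2 minus TDH3 at 0.00. Leaving out a replicate gave ranges across 0 for PFK2 (-0.16 to 0.20), PGI1 (-0.03 to 0.06), PFK27 (-0.27 to 0.02), ALD4 (-0.02 to 0.34), ALD5 (-0.61 to 0.05), GPD2 (-0.03 to 0.40), TDH2 minus TDH3 (-0.12 to 0.15), GPM2 minus GPM1 (-0.02 to 0.51) and ALD4 minus ALD6 (-0.48 to 0.07). The cause of these changes was not tested. Each ratio already pairs a treated with an untreated culture on 1 array, and no further replicate block was fitted. Signal over background is not known, so that dim spots could not be marked.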

Other observations

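ADH4, the alcohol dehydrogenase gene that yeast induces when zinc is short, lay outside the tested genes because replicate 3 gave it no value. Its ratios were -2.16 and -3.18 in replicates 1 and 2, lower than any of the 41 genes described above reached on a single array in replicates 1 or 2. MIG2, a glucose repressor, read 0.86 and 1.10 on the same arrays, and PCK1, the entry enzyme of gluconeogenesis, 0.82 and 0.25 in replicates 1 and 3; neither was tested. These values were picked after they were seen.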
